A study of Mus musculus with 8 samples.

Results

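SLC25 carriers are proteins of the inner mitochondrial membrane that move nucleotides, phosphate, organic acids, amino acids, cofactors and metal ions between the cytosol and the mitochondrial matrix. Most work as exchangers, and each recognises a small set of substrates. In red cell precursors mitochondria supply heme and iron-sulfur clusters, and the organelles are cleared as the cells mature.

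The mitochondrial SLC25 carrier genes were taken as every probe whose symbol in the array annotation is Slc25a followed by a number, leaving out Slc25a37, Slc25a38 and Slc25a39, the carriers best known for iron, glycine and glutathione supply in erythroid cells. The rule found 43 genes with 70 probes, among 19057 named genes and 45281 probes. It used the symbol alone and no measured value.

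RNA came from mouse bone marrow cells sorted for CD71, the transferrin receptor, and Ter119, an erythroid surface marker, and was measured on Illumina bead arrays. The 4 KAP1 knockout (KO) samples, A4, A8, A11 and A13, were compared with 4 wild-type (WT) samples, C4, C6, C8 and C9, to learn how loss of the corepressor KAP1 alters expression in these cells. All samples came from mice of a mixed strain aged 8 to 12 weeks, and the description of KO and WT samples alike gives the genotype as Kap-flox/stopfloxYFP. The Cre driver that removes the floxed allele is not given in the sources used here, and neither is whether each sample was a separate animal, so p-values measure only the spread between these samples. In bulk RNA, fewer cells of a type and less RNA per cell cannot be told apart.

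The targeted gene, Trim28, which encodes KAP1, gave intensities of 207, 171, 141 and 131 in KO and of 740, 395, 641 and 406 in WT (3.28-fold lower, adjusted p = 0.0085). Each array held 12143 to 12199 probes above the floor of 20, the lowest intensity the authors kept. KO sample A8 was the least like its group: its correlation with the other KO arrays averaged 0.894, against 0.934 or more for every other sample with its own group. Erythroid marker genes had a summed intensity of 61260 to 68720 in KO and of 78420 to 101800 in WT. The lower KO sum was not shared by the whole list: 1 of 7 genes was called lower, beside 3.25% of all tested genes. Alas2 gave 12920 to 15740 in KO and 24890 to 34340 in WT. Slc4a1 gave 14380 to 17640 in KO and 20950 to 28570 in WT. Klf1, an erythroid transcription factor, went the other way, at 3003 to 3381 in KO and 2286 to 2841 in WT. In the other genes of the list the groups overlapped. Neutrophil and myeloid markers summed to 47740 to 89350 in KO and 47480 to 82000 in WT, with none of 8 called. Genes of that list went both ways. S100a9 gave 3575 to 10140 in KO and 11170 to 17870 in WT, and Lcn2 gave 7230 to 25410 and 3424 to 8566.

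Of the 70 carrier probes, 25 lay above the floor on 4 or more of the 8 arrays and were tested, which is 35.7% against 27.1% of all probes. They represent 20 of the 43 genes, and 13 of these genes had a tested probe above the floor on every array. A further 9 probes lay above the floor on 1 to 3 arrays, and 36 lay at the floor on all 8.

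Slc25a10, the dicarboxylate carrier that exchanges malate and succinate for phosphate, was higher in KO, and it was the only tested carrier gene past the adjusted threshold of 0.05. Its probe reached the filter of 4 arrays only through KO, where all 4 samples lay above the floor against 1 in WT, and with every probe above the floor on at least 1 array tested its adjusted p was 0.0513. No carrier gene was called lower, and 19 were not called. Among all 7178 tested genes, 2.4% were called higher and 3.25% lower, so 1 higher call among 20 genes lies near that background. Over the 12259 tested probes the shares were 2.46% and 3.11%. At an unadjusted p under 0.05, 7 carrier genes were higher and 1 was lower, against 15.3% and 9.92% of all tested genes. The fold change was above 0 for 13 of the 20 genes, or 65%, against 58.3% of all genes. The median log2 fold change of KO over WT was 0.28, beside 0.11 for all tested genes, and the values ran from -0.96 to 1.15.

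Promoters are shown for Slc25a10, the gene called, and for Slc25a3 and Slc25a5, the phosphate and adenine nucleotide carriers, neither of which was called. The sequences, from RefSeq on GRCm38.p6, run 5′ to 3′ in the direction of the gene, from 250 bases before the annotated start to 50 after it. They lie at chr11:120491587-120491886 on the plus strand for Slc25a10, chr10:91123918-91124217 on the minus strand for Slc25a3, and chrX:36795347-36795646 on the plus strand for Slc25a5. Capitals mark matches, on either strand, to the GATA motif GATAAG, the NRF1 motif (GCGC, any base, then TGCGC) or the ETS motif CCGGAAG.
Slc25a10: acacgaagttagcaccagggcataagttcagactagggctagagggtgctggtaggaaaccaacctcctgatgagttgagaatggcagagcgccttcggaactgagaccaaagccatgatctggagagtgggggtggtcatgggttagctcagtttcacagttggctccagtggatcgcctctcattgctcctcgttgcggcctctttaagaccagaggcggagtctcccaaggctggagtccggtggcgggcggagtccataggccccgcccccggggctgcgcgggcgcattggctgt
Slc25a3: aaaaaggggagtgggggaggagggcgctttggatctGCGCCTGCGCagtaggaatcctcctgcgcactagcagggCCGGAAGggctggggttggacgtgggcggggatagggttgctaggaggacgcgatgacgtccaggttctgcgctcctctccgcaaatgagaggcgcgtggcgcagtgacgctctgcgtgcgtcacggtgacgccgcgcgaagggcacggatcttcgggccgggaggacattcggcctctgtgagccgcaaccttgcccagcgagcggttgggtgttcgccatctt
Slc25a5: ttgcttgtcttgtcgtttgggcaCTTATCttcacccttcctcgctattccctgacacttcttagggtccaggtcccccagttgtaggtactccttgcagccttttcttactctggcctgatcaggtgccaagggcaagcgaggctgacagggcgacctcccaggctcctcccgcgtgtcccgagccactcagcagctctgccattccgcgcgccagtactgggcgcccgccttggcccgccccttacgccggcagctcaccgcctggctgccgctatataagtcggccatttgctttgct

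None of the 3 motifs occurred in the Slc25a10 window. The Slc25a3 window held 1 NRF1 match and 1 ETS match, which share no base, and the Slc25a5 window held 1 GATA match on the opposite strand. Of the 20 tested carrier genes, 18 had a promoter in the table. The ETS motif was found in 5 of these 18 (27.8%; Slc25a3, Slc25a17, Slc25a20, Slc25a25 and Slc25a54) and in 9.12% of all 27025 promoters, taking the first listed for each gene. The GATA motif was found in 2 (11.1%; Slc25a5 and Slc25a12), against 7.43% of all promoters, and the NRF1 motif in 1 (5.56%), against 4.78%. A match describes the letters of the window and was not tested for binding.

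**Figure D1:**
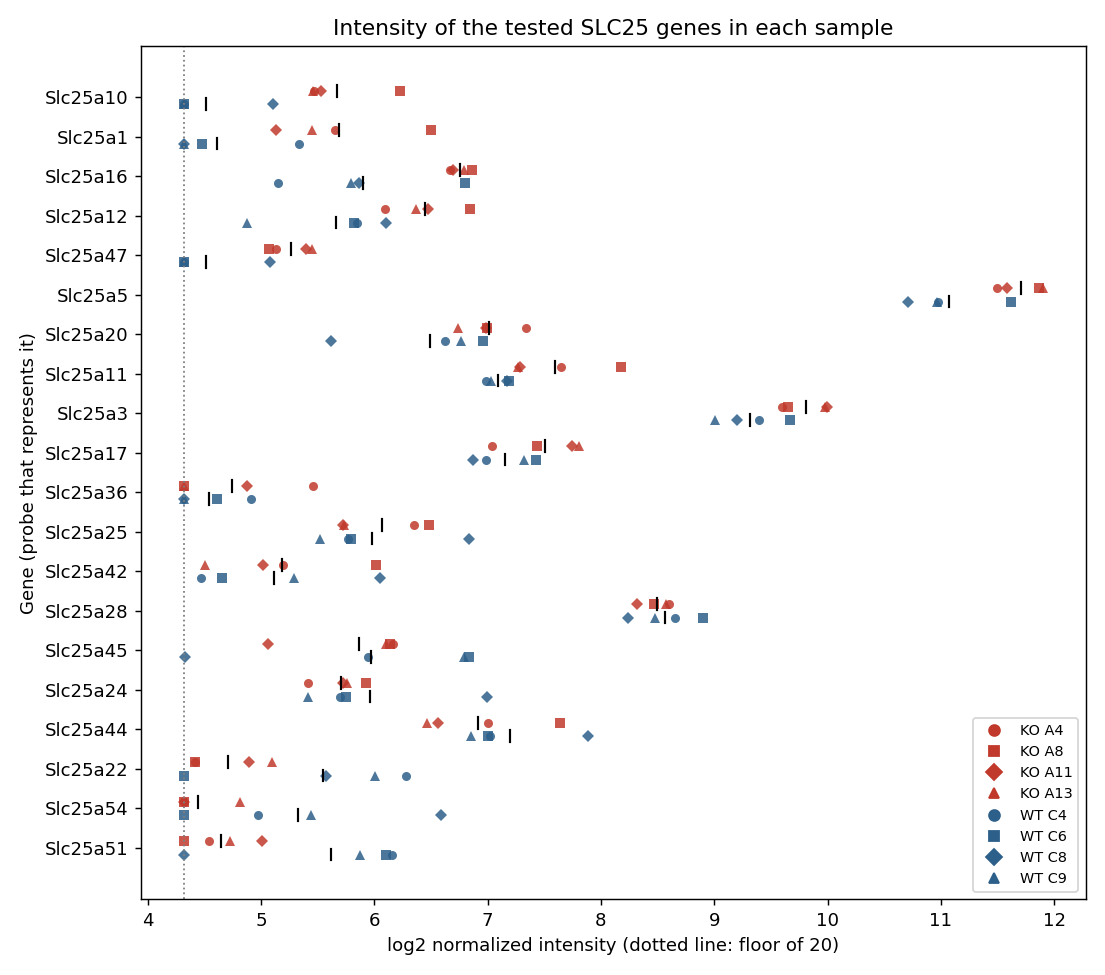
Log2 normalized intensity of the 20 tested SLC25 genes in each sample (x axis), with 1 row per gene ordered by fold change, red for KO, blue for WT and a black bar for each group's mean. The 4 KO points of Slc25a10 lie to the right of all 4 WT points, as do those of Slc25a11, and in the other 18 genes the groups overlap.

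The carriers of di- and tricarboxylates were the group with the largest median, 1.07 over 3 tested genes of 6 on the array, and all 3 were above 0. That median is the value of Slc25a1, and the probes of both Slc25a1 and Slc25a10 reached the filter of 4 arrays through KO. Slc25a10 (probe ILMN_2730797) gave KO intensities of 44.3 (A4), 75.0 (A8), 46.1 (A11) and 44.1 (A13) and WT intensities of 20 (C4), 20 (C6), 34.5 (C8) and 20 (C9), the order used for every gene that follows. The groups did not overlap: all 4 KO samples lay above the floor, but only C8 did in WT. KO was 2.22-fold higher (log2 fold change 1.15, SE 0.26, 95% confidence interval 0.56 to 1.75, adjusted p = 0.0406). The WT mean includes 3 samples held at the floor, so the fold depends on where the floor was set. Without A8 the log2 fold change was 0.97 with an adjusted p of 0.0571, and the call was lost when any sample other than C8 was left out (adjusted p 0.0571 to 0.110). It was kept without C8, at 1.35 with an adjusted p of 0.0261. The WT samples left in that fit all lay at the floor, so that p rests on a group with no spread.

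Slc25a1, the citrate carrier that feeds acetyl units to the cytosol for lipid synthesis, had 2 tested probes that gave different sizes of difference. Its brighter probe (ILMN_2919263) gave 50.3, 90.8, 35.1 and 43.7 in KO and 40.4, 22.3, 20 and 20 in WT. WT sample C4 lay above KO sample A11, so the groups overlapped, and the log2 fold change of 1.07 was not called (SE 0.34, adjusted p = 0.101). The other probe (ILMN_2619846) was near the floor on every array, at 21.1, 20.7, 28.2 and 23.3 in KO and 20, 22.1, 20 and 20 in WT, and had a log2 fold change of 0.17 (adjusted p = 0.559). Both probes reached the filter of 4 arrays through KO, with 2 WT samples above the floor at the brighter and 1 at the other. Their folds thus depend on where the floor was set.

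Slc25a11, the oxoglutarate carrier of the malate-aspartate shuttle, was measured by 3 tested probes, none of which was called. The probe that represents it (ILMN_3010110) gave 200.1, 289, 156 and 154 in KO and 127, 146, 144 and 131 in WT. Every KO sample lay above every WT sample, as at its second probe (ILMN_3010109; 126 to 152 in KO, 87.5 to 125 in WT). The log2 fold changes were 0.50 (adjusted p = 0.221) and 0.40 (adjusted p = 0.216), and the third probe gave 0.40 with overlapping groups (adjusted p = 0.467). Slc25a10 and Slc25a11 were the 2 carrier genes whose groups did not overlap with KO higher, of 20, and 11.3% of all tested genes did the same. At the probes that represent the genes, none was separated with KO lower, against 7.38% of all genes, though a further probe of Slc25a24 was.

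Of the 9 nucleotide carriers on the array, 4 were tested and none was called, with 3 above 0 and a median of 0.15. Slc25a5, which exchanges ADP for ATP across the inner membrane, gave 2891, 3738, 3070 and 3817 in KO and 2010, 3152, 1673 and 2005 in WT. C6 was the one WT sample within the KO range, and the other 3 lay below all KO samples. The log2 fold change was 0.64 (1.56-fold, SE 0.23, adjusted p = 0.133), and with 1 sample left out it ran from 0.52 (without C8, adjusted p = 0.240) to 0.83 (without C6, adjusted p = 0.0392). Its relative Slc25a4, the adenine nucleotide carrier of heart and muscle, was listed at the floor throughout.

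Slc25a24, a calcium-regulated carrier of ATP-Mg and phosphate, had 2 tested probes that differed in size. The probe that represents it (ILMN_1213947) gave 42.6, 61.0, 52.8 and 54.3 in KO and 51.9, 53.8, 128 and 42.8 in WT, where C8 alone was high. Its log2 fold change was -0.26 (adjusted p = 0.658), and without C8 it was 0.09. The other probe (ILMN_2841710) gave 28.4, 43.8, 35.8 and 32.0 in KO and 55.7, 47.9, 96.7 and 66.1 in WT. There every KO sample lay below every WT sample, with a log2 fold change of -0.90 (SE 0.25, adjusted p = 0.0746), which was not called. Slc25a25, of the same substrate group, and Slc25a36, which carries pyrimidine nucleotides, had log2 fold changes of 0.09 and 0.20 (adjusted p = 0.880 and 0.688). The other nucleotide carriers of this group, Slc25a23, Slc25a31, Slc25a33 and Slc25a41, were at the floor on all arrays.

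Slc25a3, which brings phosphate into the matrix for ATP synthesis, was the one tested gene of 4 in the phosphate and uncoupling group. It gave 775, 807, 1022 and 1006 in KO and 673, 813, 587 and 515 in WT. Again C6 lay within the KO range and the other WT samples below it. KO and WT differed by a log2 fold change of 0.49 (SE 0.21, adjusted p = 0.181), and its second probe gave 0.57 (adjusted p = 0.175), so its 2 probes differed by less than the error of either. Neither was called. Without C6 the representing probe gave 0.61 and was not called either.

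Of the 6 cofactor carriers on the array, 4 were tested and none was called, with 3 above 0. Slc25a16, linked to the supply of coenzyme A, gave 102, 116, 103 and 110.5 in KO and 35.6, 112, 58.3 and 55.4 in WT. The KO samples lay close together, and C6 was level with them while the other 3 WT samples lay lower. Its log2 fold change was 0.85 (1.80-fold, SE 0.31, adjusted p = 0.140), and with 1 sample left out it ran from 0.60 (without C4, adjusted p = 0.271) to 1.15 (without C6, adjusted p = 0.0211).

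Slc25a51, the carrier that brings NAD into mitochondria, had the most negative fold change of the 20 tested genes. It gave 23.2, 20, 32.3 and 26.5 in KO and 71.5, 68.6, 20 and 58.8 in WT. In WT, C4, C6 and C9 were well above all KO samples, but C8 was at the floor. The log2 fold change was -0.96 (SE 0.40, adjusted p = 0.175), and with 1 sample left out it ran from -0.78 (without C4, adjusted p = 0.342) to -1.40 (without C8, adjusted p = 0.0174). Slc25a42, a coenzyme A carrier, gave 0.07 (adjusted p = 0.933). Slc25a17, which despite its name serves peroxisomes, gave 0.35 (adjusted p = 0.370). Slc25a32, which brings folate into mitochondria, had no tested probe and reached at most 28.3, and Slc25a26, the S-adenosylmethionine carrier, was at the floor.

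The amino acid carriers differed in direction among themselves, with 1 of 4 tested genes above 0, of 10 on the array, and none called. Slc25a12, an aspartate-glutamate carrier of the malate-aspartate shuttle, gave 68.1, 115, 88.8 and 82.4 in KO and 57.6, 56.7, 68.8 and 29.4 in WT. The groups overlapped only in that C8 lay just above A4. With a log2 fold change of 0.78 it was not called (1.72-fold, SE 0.29, adjusted p = 0.144). Its relative Slc25a13 was listed at the floor on all arrays.

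Slc25a22, a glutamate carrier, gave 21.4, 21.4, 29.6 and 34.2 in KO and 77.5, 20, 47.5 and 64.4 in WT. The KO samples were near the floor, and 3 of 4 WT samples lay above them, with C6 at the floor. The log2 fold change was -0.84 (SE 0.40, adjusted p = 0.234), and with 1 sample left out it ran from -0.59 (without C4, adjusted p = 0.442) to -1.25 (without C6, adjusted p = 0.0286).

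Slc25a44, a carrier of branched-chain amino acids, gave 128.5, 199.5, 94.8 and 88.1 in KO and 130.2, 129, 237 and 116 in WT, with A8 and C8 the high samples of their groups. Its log2 fold change was -0.28 (adjusted p = 0.625). Slc25a45, placed with the amino acid carriers by sequence, gave 71.7, 70.5, 33.4 and 68.9 in KO and 61.5, 114, 20.1 and 111 in WT. The WT samples spanned the KO range on both sides, and the log2 fold change of -0.11 had a 95% confidence interval of -1.33 to 1.11 (adjusted p = 0.918). The ornithine carriers Slc25a2 and Slc25a15 were not tested: Slc25a2 was at the floor and Slc25a15 reached at most 21.1.

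Slc25a20, which exchanges acylcarnitines for carnitine so that fatty acids can be oxidised in the matrix, gave 162, 128, 126 and 107 in KO and 98.4, 124, 49.0 and 109 in WT. C8 was low and the other WT samples lay within or just below the KO range. The log2 fold change was 0.53 (SE 0.30, adjusted p = 0.311), and without C8 it was 0.23. Slc25a28, or mitoferrin 2, an iron carrier found in many tissues, gave 388, 355, 319 and 382 in KO and 403, 477, 302 and 356 in WT. Here the groups lay on top of each other, and the log2 fold change of -0.08 had a 95% confidence interval of -0.51 to 0.36 (adjusted p = 0.830). Slc25a40, a glutathione carrier related to Slc25a39, was at the floor on all arrays.

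Among the 5 genes with roles in mitochondrial dynamics or with no settled substrate, 2 were tested. Slc25a47, best known from liver, gave 35.1, 33.5, 42.2 and 43.8 in KO and 20, 20, 33.8 and 20 in WT. C8 was the one WT sample above the floor and lay just above A8. The probe of Slc25a47 thus reached the filter of 4 arrays only through KO, and without C8 its WT samples had no spread. Its log2 fold change was 0.75 (SE 0.23, adjusted p = 0.0873), and with 1 sample left out it ran from 0.69 (without A13, adjusted p = 0.205) to 0.94 (without C8, adjusted p = 0.0381). Slc25a54 was at the floor in KO apart from A13 (28.1) and gave 31.5, 20, 96.0 and 43.4 in WT. Its log2 fold change was -0.89 (SE 0.42, adjusted p = 0.231), and without C8 it was -0.47.

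**Figure D2:**
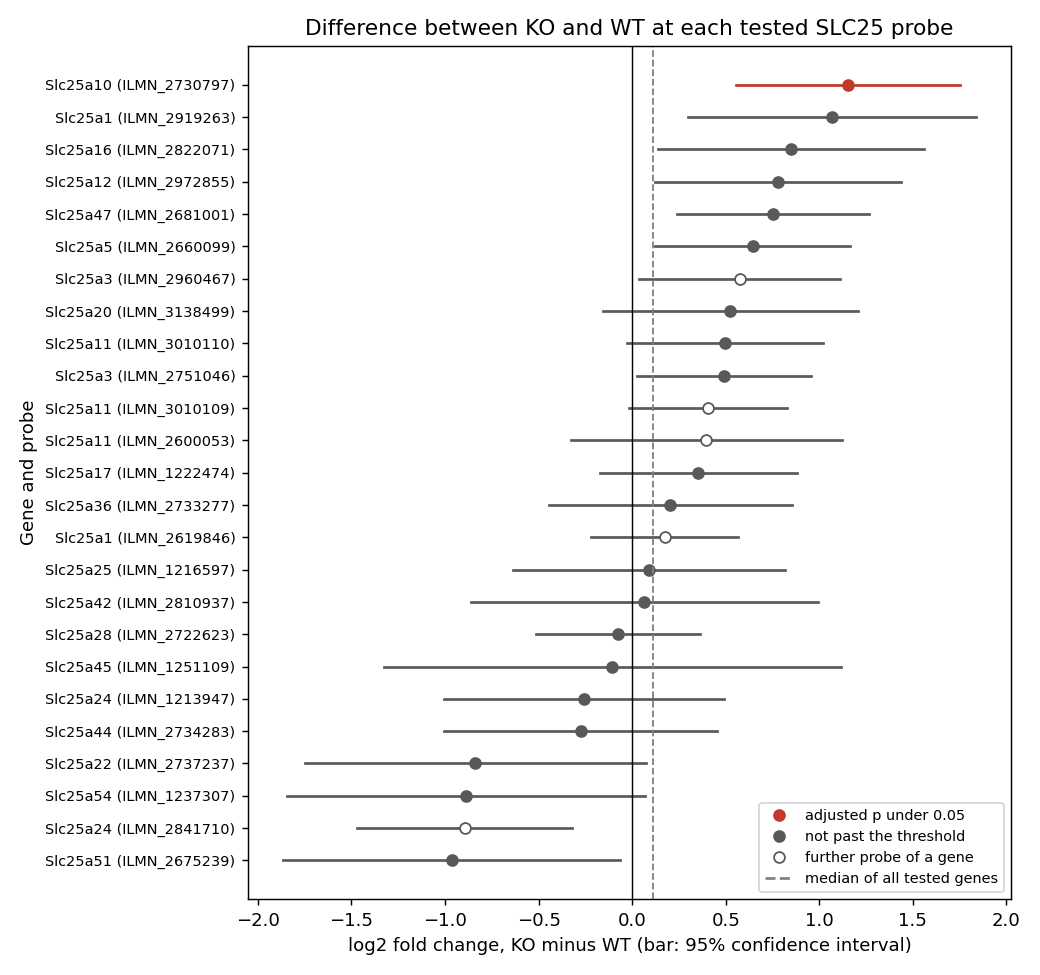
Log2 fold change of KO over WT (x axis) at each of the 25 tested SLC25 probes, with 95% confidence intervals. Slc25a10 is the one probe past the adjusted threshold (red), open circles are further probes of a gene, and the dashed line is the median of all tested genes, 0.11.

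Which carrier genes passed depended on single samples of both groups. Slc25a10 was lost without any one of the 4 KO samples, and without C4, C6 or C9. Leaving out C6 brought Slc25a5, Slc25a16 and Slc25a22 past the threshold. Leaving out C8 brought Slc25a47 and Slc25a51 past it, Slc25a47 with the remaining WT samples all at the floor. These shifts were not limited to carriers: over all 12259 probes, 301 higher and 381 lower calls became 557 and 586 without C6, and 149 and 245 without C8. Each of C6 and C8 was the highest WT sample for 8 of the 20 carrier genes (40%), against 29.7% and 29.3% of all tested genes, and C9 for none, against 17% of all genes. In KO, A8 was the highest sample for 9 of 20 (45%), close to its 43.4% over all genes. Averaged over the 20 genes, log2 intensity was 6.42 to 6.69 in KO and 6.24 to 6.36 in WT, and over all tested genes 6.998 to 7.104 and 6.947 to 7.025.

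**Figure D3:**
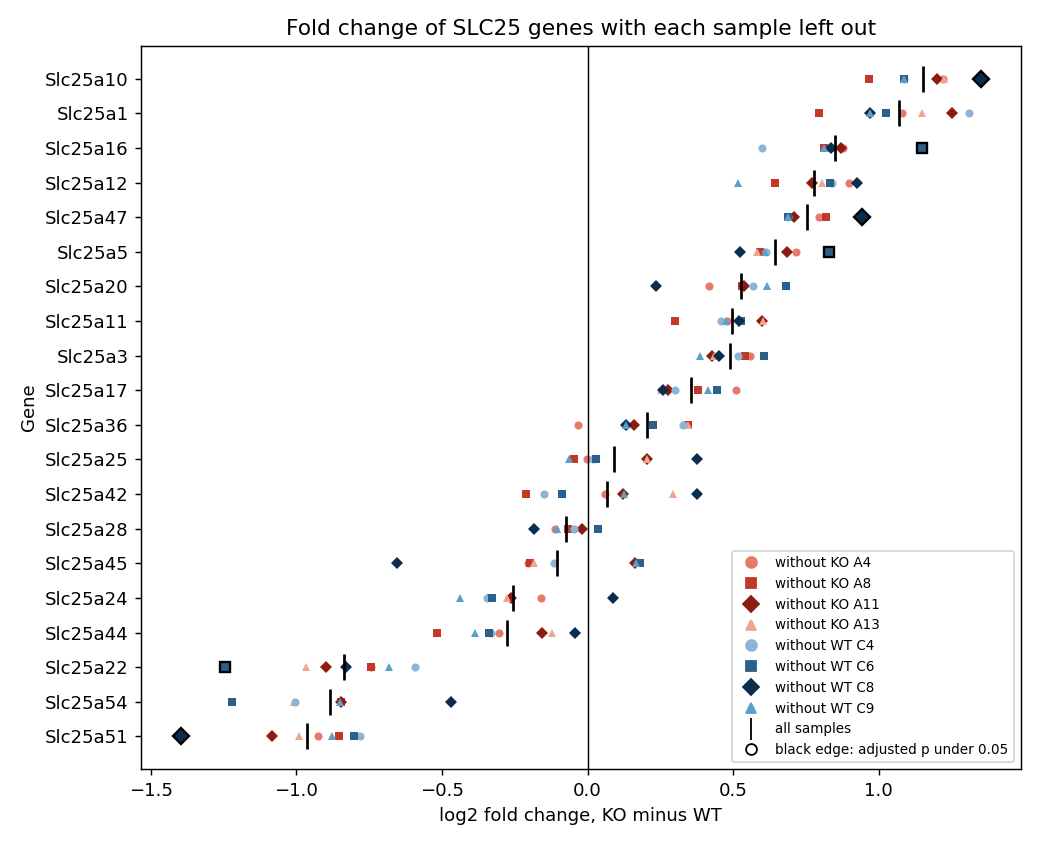
Log2 fold change of KO over WT (x axis) of each tested SLC25 gene when 1 sample is left out, with a black bar for all 8 samples and a black edge where the adjusted p is under 0.05. Outlined points appear without C6 for Slc25a5, Slc25a16 and Slc25a22, and without C8 for Slc25a10, Slc25a47 and Slc25a51.

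The remaining 23 carrier genes could not be compared. In 5 (Slc25a15, Slc25a30, Slc25a32, Slc25a34 and Slc25a46) some probe lay above the floor on 1 to 3 arrays, with a highest intensity of 28.8. In the other 18 genes no probe left the floor on any array. Genes that most cells use, such as Timm13, Timm22, Tomm70a and Mcu, were also listed at the floor, so the floor does not show that a gene was silent. Besides those already named, the 18 include Slc25a14 and Slc25a27, which are uncoupling protein relatives, the oxodicarboxylate carrier Slc25a21 and Slc25a18, a second glutamate carrier. They also include Slc25a29, Slc25a35, Slc25a43, Slc25a48 and Slc25a53.

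Genes that work beside the carriers were examined as lists. The 5 tested family relatives outside the symbol rule held 1 lower call, Slc25a39, beside 3.25% of all tested genes. Slc25a39 gave 923, 892, 821 and 821 in KO and 4771, 2133, 3981 and 3633 in WT. It was 4.04-fold lower in KO (log2 fold change -2.01, adjusted p = 0.00339). Slc25a37, mitoferrin 1, gave opposite directions at its 2 probes, with log2 fold changes of -1.02 (ILMN_2696610, adjusted p = 0.101) and 1.38 (ILMN_1230858, adjusted p = 0.0439). The second was called although its groups overlapped.

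Of 15 tested genes of other transport across the mitochondrial membranes, 2 were called higher and 1 lower, beside 2.4% and 3.25% of all tested genes. Tmem14c, a protein needed for a late step of heme synthesis, gave 7396, 8742, 7506 and 8210 in KO and 3337, 4835, 4670 and 3909 in WT (log2 fold change 0.94, adjusted p = 0.0231). Sfxn1, the mitochondrial serine transporter, gave 1242, 1566, 1230 and 1426 in KO and 649, 910, 578 and 776 in WT (0.92, adjusted p = 0.0343). In both genes all KO samples lay above all WT samples. Of the further probes, those of Tmem14c gave 0.92 (adjusted p = 0.0379) and 0.33 (adjusted p = 0.610), and that of Sfxn1 gave 0.82 (adjusted p = 0.106). Sfxn5, a sideroflexin, was lower (-1.23, adjusted p = 0.0332), at 20 to 22.6 in KO and 38.2 to 85.1 in WT. Only 2 KO samples lay above the floor, so its fold depends on the floor, and the probe passed the filter through WT. The outer membrane channel Vdac1 was not called (0.76, adjusted p = 0.0508).

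Carriers made in the cytosol reach the inner membrane through the outer membrane pore and the small TIM chaperones. Of 8 tested genes of that route 1 was called higher (2.4% of all genes), the pore receptor Tomm22, at 130.2, 143, 105 and 127 in KO and 76.5, 59.2, 86.5 and 48.4 in WT (0.93, adjusted p = 0.0479). The groups did not overlap. The 3 tested enzymes of the malate-aspartate shuttle, Got2, Mdh1 and Mdh2, had log2 fold changes of 0.59 to 0.75, and none was called.

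Of the 4 tested enzymes of folate one-carbon metabolism, 2 were called higher, beside 2.4% of all tested genes. Shmt2, which makes glycine from serine in mitochondria, gave 146, 137, 158 and 155 in KO and 20, 50.2, 20 and 41.1 in WT. The probe reached the filter of 4 arrays through KO, since only 2 WT samples lay above the floor. All KO samples lay above all WT samples, of which 2 were at the floor, and the log2 fold change was 2.31 (4.94-fold, SE 0.32, adjusted p = 0.00500). That fold depends on the floor and the probe: it was 1.57 with the floor raised to 50 and 1.51 for the mean of its probes. Its second probe gave 0.71 with overlapping groups (adjusted p = 0.421). Mthfd1, the cytosolic enzyme of the same pathway, was higher by 1.11 (adjusted p = 0.0455), and its second probe gave 0.57 (adjusted p = 0.501).

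No gene was called among 5 of citrate and lipid precursor metabolism, 7 of carnitine and fatty acid oxidation, and 2 of arginine and proline metabolism. The smallest p values there were those of Idh2 (0.57, adjusted p = 0.315) and Cs (0.39, adjusted p = 0.292), of Hadha (at least 1.60-fold higher, adjusted p = 0.0702) and Crat (-0.94, adjusted p = 0.0914), and of Oat (0.69, adjusted p = 0.0662) and Aldh18a1 (0.83, adjusted p = 0.183). Hadha was tested only because its 4 KO samples lay above the floor; all WT samples were at it, so its p rests on a group with no spread. Calls in Shmt2, whose probe passed the filter through KO, and in Slc25a39 held whichever sample was left out. Those in Mthfd1, Sfxn5 and Tmem14c held in 3 of 8 such fits, and those in Sfxn1 and Tomm22 in 1 of 8, with adjusted p up to 0.122. With the authors' p-values after Benjamini-Hochberg adjustment none of these 7 calls held (adjusted p 0.105 to 0.261). Tomm22 was also lost after cyclic loess (0.0609) and with a robust intensity trend (0.0642), and Mthfd1 (0.0677) and Tmem14c (0.0596) for the mean of their probes. Mthfd1 was lost too when probes above the floor on at least 1 array were tested (0.0583).

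**Figure D4:**
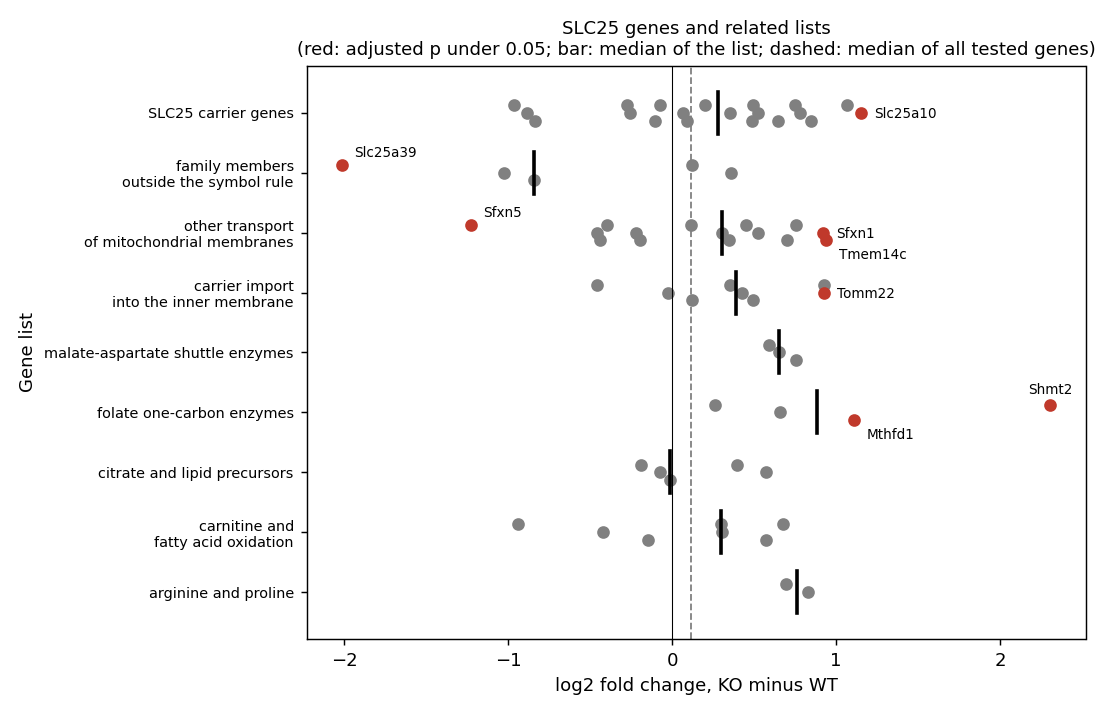
Log2 fold change of KO over WT (x axis) of the tested genes in each list, with 1 point per gene, red where the adjusted p is under 0.05, a black bar at the list's median and a dashed line at the median of all tested genes. The SLC25 carriers spread on both sides of 0 around a median of 0.28, and Shmt2 and Slc25a39 lie farthest from 0.

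Among markers of other cells, summed megakaryocyte and platelet markers were 549 to 824 in KO and 294 to 422 in WT. That was the one such sum whose groups did not overlap. Of 4 tested genes 1 was called higher, beside 2.4% of all tested genes, and Gp1bb and Ppbp were at the floor. Tubb1 gave 122 to 458 in KO and 20 in every WT sample, so it passed the filter only through KO. Pf4 gave 20.6 to 65.1 in KO and 20 to 20.2 in WT, and the groups overlapped in Gp9 and Itga2b. Stem and progenitor markers (Kit, Gata2 and Cd34) summed to 80.9 to 403 in KO, highest in A8, and to 60.0 to 81.3 in WT, with none called. Of 4 tested mast cell and basophil markers 2 were called higher and 1 lower, beside 2.4% and 3.25% of all tested genes. Cpa3 and Mcpt8 passed the filter only through KO, as C6 was the one WT sample above the floor in each. Fcer1a gave 123 to 138 in KO and 23.4 to 62.3 in WT, and Prss34 gave 38.8 to 176 and 243 to 433. Ms4a2 was at the floor, and the sums were 386 to 539 in KO and 343 to 577 in WT. B cell markers summed to 518 to 1468 in KO and 1209 to 3937 in WT, with Pax5 at the floor and none of 6 called. Macrophage markers (672 to 1611 in KO, 753 to 1246 in WT) held no call. The 4 tested T and NK cell markers (235.5 to 712.5 and 181 to 541) held 1 lower call, beside 3.25% of all tested genes. The part of these cells in the carrier values was not tested.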

How the data were processed

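The values are linear probe intensities deposited by the authors, for which the submitters' processing notes name BeadStudio 3.1.3. The arrays shared 1 intensity (within 0.1 percent) at 4959 of the 5000 top ranks, the mark of quantile normalization, and 73.1% to 73.2% of probes sat at the floor of 20. The amplified input was 100 ng of RNA per the labels. A table of signals before normalization has 8 columns that match no sample label and was not used. The authors' deposited table gives a signed fold and a p-value per probe, used as an alternative.

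Intensities were converted to log2, and the 12259 probes above the floor on at least 4 of 8 arrays were compared with limma 3.58.1 (lmFit, eBayes; R 4.3.3), without covariates. Benjamini-Hochberg adjustment covered every tested probe (threshold 0.05). For the authors' p-values it covered all 18468 probes with a deposited p, a larger set than the tested probes. The brightest tested probe stands for each of 7178 genes. In the array annotation 34885 probes have 1 gene symbol, 18 have several and 10378 have none. The number of arrays limits the precision. The script was checked on simulated data.

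Members and lists were chosen with earlier results of these data known. Named with values in every sample were members past the threshold, the 6 largest and 6 most negative fold changes, the 4 brightest members and a set of carriers of known substrate. Of the partner lists, genes past the threshold or otherwise the 2 of smallest p were named. Second probes were added after their values were seen. Promoters and their coordinates come from the RefSeq table of GRCm38.p6, and no build is stated for the array. Alternatives changed the filter, floor, variance model, array weights, centring, normalization, probe choice, p-values and samples.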

Additional observations from a re-analysis of the deposited data

Results flagged for a closer look

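The tested probes of the carrier genes named with values in every sample were examined, some of these genes having been chosen by fold change. In 9 of the 42 groups of 4 samples examined, 1 sample lay far from the other 3 by Dixon's criterion for 4 values. Chance gives about 1 such group in 20, and groups with 3 samples held at the floor meet the criterion whenever the fourth lies above it.

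Both groups of Slc25a10, the dicarboxylate carrier, were among them: KO sample A8 at 75.0 lay above the other KO samples (44.1 to 46.1), and WT sample C8 at 34.5 was the one WT sample above the floor of 20. C8 was also the sample apart in WT for Slc25a44 (237, others 116 to 130), Slc25a47 (33.8, others at 20) and Slc25a51 (20, others 58.8 to 71.5). The citrate carrier Slc25a1 had WT sample C4 apart at one probe (40.4, others 20 to 22.3) and C6 at the other (22.1, others at 20). KO sample A11 was low for Slc25a45 (33.4, others 68.9 to 71.7), and A13 was the one KO sample above the floor for Slc25a54 (28.1, others at 20). What set these samples apart was not tested.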

How the results depend on the processing

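Of the numbers in the sample codes, 4 and 8 occur in both groups, and no label ties them to a litter or batch, so they were not taken as pairs. A limma fit with that number as a replicate block, added after seeing the data, leaves 1 residual degree of freedom; it called 0 carrier genes and 0 probes higher, and 0 of each lower, with 945 probes higher, 991 lower and 5 carrier genes at an unadjusted p under 0.05, a carrier median of 0.34, and signs turned for Slc25a28 (0.089) and Slc25a45 (1.02). The count of carrier genes called higher, 1, became 0 when every probe above the floor on at least 1 array was tested. It was also 0 with the filter on all 8 arrays and with the floor raised to 50, settings that leave Slc25a10 untested. The count was 0 as well with the authors' p-values after Benjamini-Hochberg adjustment. It became 2 with array weights, 5 with the authors' unadjusted p, 7 with limma's unadjusted p, and 0 to 2 with 1 sample left out. The count called lower, 0, became 1 at limma's unadjusted p, was 0 at the authors', and ranged from 0 to 1 with 1 sample left out. The median of 0.28 became 0.090 with probes above the floor on at least 1 array (25 genes) and 0.42 with the floor at 50 (12 genes), and was 0.24 to 0.34 with 1 sample left out. Over all probes, the 301 higher calls became 171 with the filter on all 8 arrays, 836 with array weights, 28 and 1525 with the authors' adjusted and unadjusted p, 1789 with limma's unadjusted p, and 91 (without C4) to 557 (without C6) with 1 sample left out. The 381 lower calls became 702, 39, 930 and 1277 under the last 4 of these settings, and 162 to 586 with 1 sample left out. Slc25a10 kept its direction in every alternative that tested it, with an adjusted p of 0.0513 when probes above the floor on at least 1 array were tested and of 0.158 from the authors' p-values.

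Signs turned in genes that were not called. Slc25a25 was -0.042 and Slc25a42 -0.023 after cyclic loess, which lowered the median of all genes from 0.11 to 0.04, and Slc25a42 was -0.25 with array weights. With 1 sample left out, Slc25a24 ran from -0.44 to 0.086, Slc25a25 from -0.063 to 0.37, Slc25a28 from -0.19 to 0.035, Slc25a36 from -0.033 to 0.34, Slc25a42 from -0.21 to 0.38 and Slc25a45 from -0.65 to 0.18. The cause was not tested. The floor hides differences below an intensity of 20.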

Other observations

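In KO sample A8, 1 probe of Mtch2, a family relative of the outer membrane, gave 22.2 against 450.3 to 558 in the other KO samples and 369 to 521 in WT. The outer membrane channel Vdac3 gave 113 in A8 against 843 to 998 in the other KO samples, and Acadl, an enzyme of fatty acid oxidation, lay at the floor in A8 alone. The other 2 tested probes of Mtch2 had log2 fold changes of 1.17 and 0.86 (adjusted p = 0.0811 and 0.211), against -0.84 (adjusted p = 0.603) at the probe that was low in A8. These genes were chosen after their values were seen.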
